A study of Mus musculus with 2 samples.

Results

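The cells described here were MHC class II-positive, Apoe-low cells sorted from glaucomatous mouse retina, 431 of the 3330 cells of the Igfbpl1 library and 2 of the 1055 cells of the PBS library. They are called Apoe-low cells below. A cell was included when H2-Aa, H2-Ab1, H2-Eb1 and Cd74 together reached 100 unique molecular identifiers (UMIs, counts of single transcripts) per 10000 and Apoe stayed under 100 per 10000. The sum of the microglial genes P2ry12, Tmem119, Gpr34, Olfml3, Sparc and Sall1 had to be under 15 per 10000. Cells with 3 UMIs of the B cell genes Cd79a, Cd79b and Ms4a1, with 2 of the T cell genes Cd3d, Cd3e and Cd3g, with 2 of the plasmacytoid genes Ccr9, Klk1 and Cox6a2, or with both Ccr7 and Fscn1 were left out. The cells were thus selected on measured UMI counts, so the levels of these genes describe the choice and are no finding.

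Both groups were B6 mice with microbead-induced glaucoma, in which beads placed in the eye raise its pressure. One group received PBS and the other Igfbpl1, a secreted protein related to the binding proteins of insulin-like growth factors. Mice were 8 to 10 months old and were perfused with saline. Retinas were digested with enzymes for 1 hour at 37 C, and CD45-positive cells were sorted and counted in 1 droplet library per group, each pooled from 10 mice. Single animals cannot be told apart within a pool, and with 1 library per group nothing was tested. Intervals are exact 95% intervals that cover counting error only.

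Dendritic cells take up antigen, process it and present the peptides to T cells on MHC class II molecules, and they are scarce in the healthy retina. The class II molecule is an alpha-beta pair held in the endosome by the invariant chain Cd74, and H2-DM then helps the peptide to bind while H2-O restrains H2-DM. Conventional dendritic cells fall into a DC1 kind, marked by Xcr1 and Clec9a, and a DC2 kind, marked by lectins such as Cd209a and Clec10a, and both switch on Ccr7 and Fscn1 when they migrate. Macrophages can carry class II as well and are known for complement C1q, lipid transport proteins and lysosomal proteases.

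Class II genes share a promoter layout, in which an X box bound by RFX lies upstream of a Y box, an inverted CCAAT box bound by NF-Y, and the coactivator Ciita acts through both. The promoters of the class II genes that were at least 2-fold higher than in Apoe-high cells (H2-Oa, H2-DMb2 and H2-Ob; that class is defined below) are shown with that of H2-DMb1, which was not 2-fold apart there, and with those of H2-Aa and H2-Eb1 from the selection rule. Each window holds 76 bases, 5′ to 3′ on the strand of the gene, from RefSeq promoters of GRCm38.p6. Capitals mark GATTGG, the core of the Y box, and GCAAC, the core of the RFX-bound part of the X box.
H2-Oa: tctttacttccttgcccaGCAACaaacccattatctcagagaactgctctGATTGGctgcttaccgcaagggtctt
H2-Ob: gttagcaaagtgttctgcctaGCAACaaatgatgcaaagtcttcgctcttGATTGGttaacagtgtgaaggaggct
H2-DMb2: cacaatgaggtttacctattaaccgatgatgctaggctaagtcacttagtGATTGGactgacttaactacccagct
H2-DMb1: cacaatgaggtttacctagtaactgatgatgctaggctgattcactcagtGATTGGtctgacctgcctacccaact
H2-Aa: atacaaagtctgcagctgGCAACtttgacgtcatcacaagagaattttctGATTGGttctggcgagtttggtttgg
H2-Eb1: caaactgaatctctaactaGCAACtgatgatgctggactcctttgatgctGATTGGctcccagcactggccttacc

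All lie in the class II region of chromosome 17: H2-Oa at chr17:34092285-34092360, H2-Ob at chr17:34238797-34238872, H2-DMb2 at chr17:34145108-34145183, H2-DMb1 at chr17:34153079-34153154 and H2-Eb1 at chr17:34305757-34305832, all on the plus strand, and H2-Aa at chr17:34287847-34287922 on the minus strand. GATTGG lay 44 bases before the start of H2-Oa, 58 before H2-Ob, 91 before H2-DMb2, 62 before H2-DMb1, 49 before H2-Aa and 60 before H2-Eb1. It was present on the strand of the gene in at least 1 promoter of all 8 class II genes found in the table of 9 looked up (H2-Ab1 was the other). H2-DMa had 2 promoters in the table, of which 1 lacked GATTGG on both strands and the other held it 199 bases before the start. Searched on both strands, GATTGG was in 16.1% of the 32851 promoters of the table, each from 250 bases before to 50 after a start. GCAAC was in 35.2% and both were in 6.05%. In 5 of the 8 genes GCAAC lay 24 to 27 bases upstream of GATTGG, and the H2-DMb2 and H2-DMb1 windows lacked these exact letters. A match is a description of the letters only.

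Apoe-low cells made up 12.9% of the Igfbpl1 library (11.8 to 14.1%) and 0.190% of the PBS library (0.0230 to 0.683%). The 431 cells held 1759859 UMIs, and the median cell had 3794 UMIs from 1262 genes. A median of 31.4% of their UMIs came from ribosomal protein genes and 0.936% from mitochondrial genes, and Scrublet called 6 of them doublets. Depth per cell differed between the libraries, at a median of 3433 UMIs in PBS and 2355.5 in Igfbpl1. With every cell thinned to 1000 UMIs the shares were 1.90% and 13.6%. The B and T cell limits, which are numbers of UMIs, were kept as they were in the thinned cells. The 2 PBS cells had 7179 and 12576 UMIs and together carried 70 S100a4 UMIs, 4 of H2-Oa and 11 of H2-DMb2, but 0 of Plac8, Flt3, Cd209a, Xcr1 and Clec9a. All further values are from the Igfbpl1 library. No barcode was shared between the libraries.

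Other classes of the Igfbpl1 library were used for comparison. Apoe-high cells obeyed the same rule with Apoe at 100 or more per 10000 (231 cells, 889894 UMIs, 23.9% ribosomal). Ccr7 and Fscn1 cells, the migratory dendritic phenotype, carried at least 1 UMI of each of these genes and had no Apoe limit (27 cells, 75541 UMIs). Monocyte-rule cells had class II and Apoe each under 100 per 10000 (34 cells, 79119 UMIs). Their sum of Ly6c2, Ccr2, Plac8, Chil3, F13a1 and Lyz2 was 20 or more per 10000. Their sum of the natural killer cell genes Nkg7, Ncr1, Klrb1c and Gzma was under 2 UMIs. The other limits of the rule were kept. The PBS library held 48, 0 and 12 cells of these classes. Free RNA can enter any droplet. Several shares of cells with a UMI are therefore given beside those in T-rule or B-rule cells, after thinning every cell to 1000 UMIs. T-rule cells had Cd3 genes (315 cells, median 2464 UMIs) and B-rule cells had Cd79 and Ms4a1 (67 cells, median 1734 UMIs). Shares and counts of cells given without such a value were not checked in this way.

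The Apoe limit did not fall in a gap between values. Apoe had a median of 3.25 per 10000 in the Apoe-low cells, 115 of them (26.7%) had no Apoe UMI, and 95% were at or under 63.8. Just inside the limit, the 5 highest cells held 94.5 to 99.1 Apoe UMIs per 10000, and just outside the nearest 5 held 100.4 to 108.7. In all, 30 included cells lay between 50 and 100 and 49 excluded ones between 100 and 200. The class II sum had a median of 446.8 per 10000 and ran from 109.0 to 1089. Its 5 lowest included cells held 109.0 to 136.9, and the 5 nearest outside held 68.1 to 90.7. The microglial sum was 0 in 341 of the 431 cells.

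**Figure D1:**
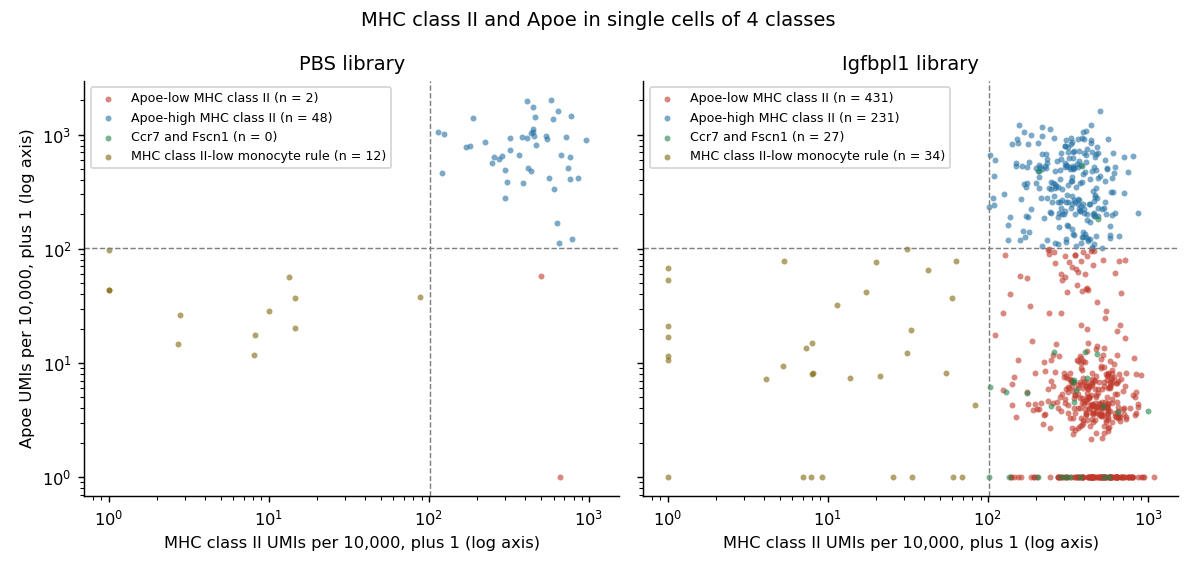
Each point is 1 cell of the PBS (left) or Igfbpl1 (right) library, with class II UMIs per 10,000 on the x axis and Apoe UMIs per 10,000 on the y axis, both plus 1 on log axes; dashed lines are the limits of 100. Most of the 431 Apoe-low cells of the Igfbpl1 library lie far below the Apoe limit, with 30 between 50 and 100, and the PBS library had 2 Apoe-low cells.

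Xist and Y-linked transcripts divided the Apoe-low cells unlike the microglia of the same library. Of the 246 Apoe-low cells with UMIs of only 1 kind, 237 had Xist and 9 had Y-linked genes, or 3.66% Y-linked (1.69 to 6.83%). The Apoe-high cells were alike, with 142 and 6 cells (4.05%), whereas microglia-rule cells had 532 and 425 (44.4%). In the PBS library the Apoe-high cells had 20 and 18 (47.4%) and the microglia-rule cells 187 and 363 (66.0%). Both PBS Apoe-low cells were Y-linked. The labels give no sex, and the part of this split in the difference between the libraries was not tested.

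Of the genes proposed as markers outside the rule, Plac8, a monocyte and dendritic cell gene, was seen in 90.5% of the Apoe-low cells, Flt3 in 20.9% and Cd209a in 19.5%. Plac8 stood at 72.4% after thinning, against 14.9% of T-rule and 35.8% of B-rule cells. Its log2 ratio to Apoe-high cells was 1.02 (20 CPM added), and 0.95 with a class II limit of 200. Of 8 measured classical monocyte genes 1, Plac8, was at least 2-fold higher than in Apoe-high cells and 3 were lower (Fn1, Lyz2 and Thbs1). Clustering the 431 cells gave 5 subclusters, and some of them were named by the fixed markers that were raised. Raised means at least 2-fold above the other Apoe-low cells, so a marker shared between subclusters may not count. A subcluster without a name is therefore not shown to be other than dendritic. Subcluster 4 (60 cells, 13.9%) had 7 of 8 DC1 markers raised, namely Xcr1, Clec9a, Irf8, Cadm1, Wdfy4, Naaa and Itgae, and is called DC1-like. Subcluster 5 (29 cells, 6.73%) had all 6 migratory markers raised (Ccr7, Fscn1, Ccl22, Cacnb3, Relb and Socs2) and is called migratory DC-like. Ccr7 and Fscn1 are genes of the rule, which removed every cell with both. The name therefore rests on Ccl22, Cacnb3, Relb and Socs2. Subcluster 2 (94 cells, 21.8%) had 6 of 10 macrophage markers (C1qa, C1qb, C1qc, Apoe, Trem2 and Ms4a7) and 4 of 11 classical monocyte markers raised. It was led by Lyz2, Apoe and C1qb and is called macrophage-like. Apoe is a gene of the rule, so the name rests on the other macrophage markers. This subcluster held 29 of the 30 cells with Apoe between 50 and 100. Subclusters 1 (173 cells, 40.1%) and 3 (75 cells, 17.4%) stay unnamed. Subcluster 1 was led by Cd209a, Klrd1, Il1r2 and Epcam and had 1 of 10 DC2 markers raised, and subcluster 3 was led by Ifitm1, Ppp1r14a, Mdh2 and Ifitm6 and had none. These genes made the clusters and are no test of them.

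The partition was coarse. At a resolution of 0.3 there were 4 subclusters, with the same 60 DC1-like cells together and with subclusters 3 and 5 inside 1 group of 132 cells. At a resolution of 1.0 there were 9, and 50 of the 60 DC1-like and 28 of the 29 migratory DC-like cells stayed together. Subcluster 1 kept 69 of its 173 cells together at 1.0, and the macrophage-like subcluster kept 66 of its 94 at 1.0 and 64 at 0.3.

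**Figure D2:**
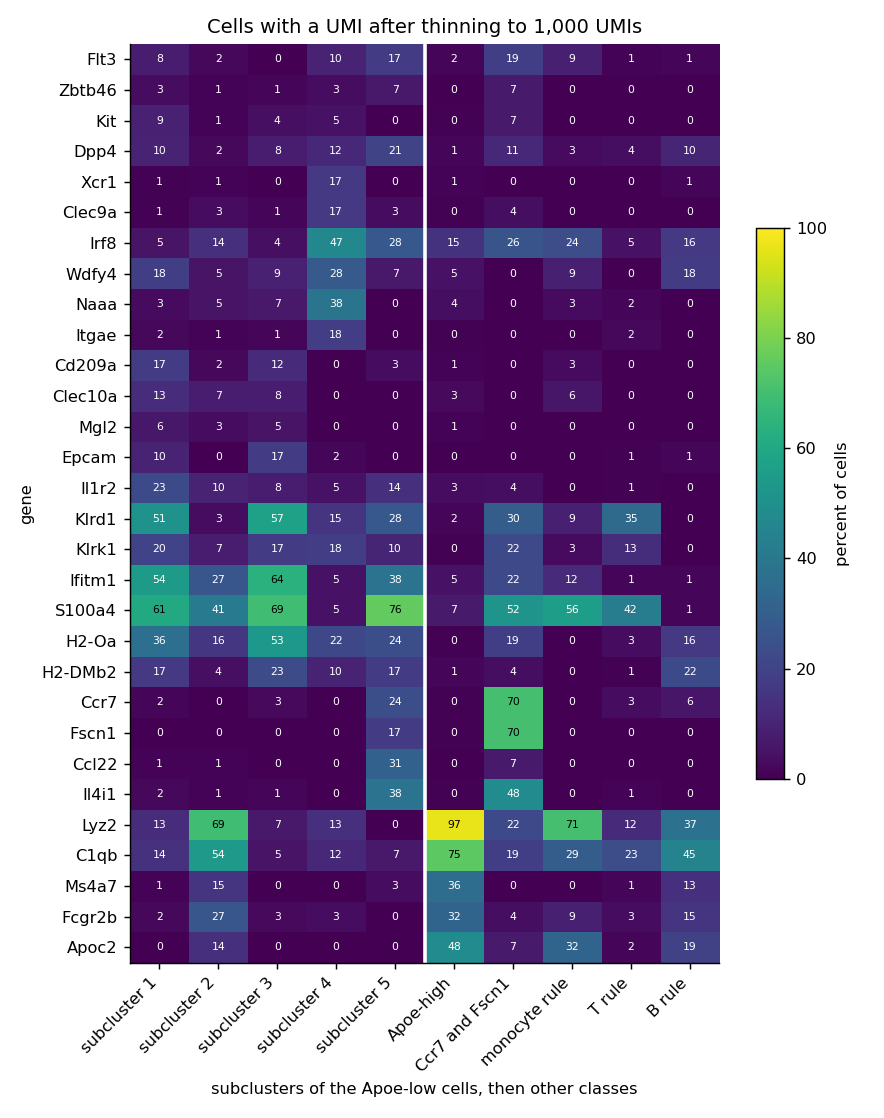
The colour and number in each square give the percent of cells with at least 1 UMI of the gene (rows) after thinning to 1,000 UMIs, for the 5 subclusters of the Apoe-low cells (left of the white line) and for 5 other classes of the Igfbpl1 library (right). Xcr1, Clec9a and Naaa stand out in subcluster 4, Ccl22 and Il4i1 in subcluster 5, Lyz2 and C1qb in subcluster 2, and Klrd1 in subclusters 1 and 3.

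The class II genes of the rule were present throughout: H2-Aa, H2-Eb1 and Cd74 were seen in every Apoe-low cell and H2-Ab1 in 99.5%. Among class II genes outside the rule, the peptide editing inhibitors H2-Oa and H2-Ob and the H2-DM beta chain H2-DMb2 set these cells apart from Apoe-high cells. Against Apoe-high cells, 71 of 2388 measured genes (2.97%) were at least 2-fold higher and 155 (6.49%) at least 2-fold lower, with a median log2 ratio of -0.02 (20 CPM added to both; CPM are the UMIs of a gene scaled to the same total in each class). Of the 7 measured class II genes, 3 were higher and none lower, with a median log2 ratio of 0.84. Because the cells were split on the same counts, these counts describe the classes. Ribosomal content also moved with them (31.4% against 23.9%), and its part was not tested.

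H2-Oa stood at 384 CPM in the Apoe-low cells (356 to 414) and at 32.6 CPM in Apoe-high cells (21.8 to 46.8), an 11.8-fold ratio (8.13 to 17.7). It was seen in 32.0% of thinned Apoe-low cells, 0.433% of Apoe-high, 3.17% of T-rule and 16.4% of B-rule cells, which are class II-positive themselves. By subcluster it stood at 434 CPM in subcluster 1, 162 in the macrophage-like cells, 657 in subcluster 3, 358 in the DC1-like and 355 in the migratory DC-like cells, so even the lowest lay above the Apoe-high level. H2-DMb2 stood at 172 CPM against 23.6 (7.30-fold), and H2-Ob at 126 against 20.2 (6.24-fold, 3.86 to 10.7). H2-DMa and H2-DMb1, the other subunits of H2-DM, differed little: 849 against 583 CPM (1.46-fold) and 559 against 543 (1.03-fold, 0.923 to 1.15). Ciita, the coactivator, stood at 163 against 82.0 CPM (1.98-fold, 1.53 to 2.60), under the 2-fold limit on the log scale used. H2-Eb2 was sparse, at 14.8 CPM in all Apoe-low cells but 130 CPM in the migratory DC-like ones. Ifi30, the thiol reductase of antigen processing, stood at 1819 against 1107 CPM (1.64-fold). Napsa, an aspartic protease outside the list, stood at 598 against 108 CPM (5.55-fold).

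Dendritic lineage genes were low but mostly above the Apoe-high cells. Of 10 genes shared by dendritic cells, 5 were measured and 3 were at least 2-fold higher than in Apoe-high cells, with none lower and a median log2 ratio of 1.01: the corepressor Cbfa2t3 (195 against 52.8 CPM), the surface protein Cd24a (90.3 against 34.8) and the peptidase Dpp4 (105 against 15.7). Flt3, the growth factor receptor of the lineage, stood at 65.9 CPM against 22.5 (2.93-fold, 1.81 to 4.98) and was seen in 20.9% of cells, or 6.03% after thinning against 0.952% of T-rule cells. Kit, another receptor of the same family, stood at 64.8 against 5.62 CPM, and the transcription factor Bcl11a at 68.8 against 2.25 CPM from 2 UMIs (30.6-fold, 8.29 to 255). Bcl11a was, however, at least 2-fold lower in the Apoe-low cells than in monocyte-rule cells. Zbtb46, the factor specific to conventional dendritic cells, was seen in 11.1% of Apoe-low cells at 29.5 CPM and rested on 1 UMI in Apoe-high cells. Flt3, Kit, Bcl11a and Zbtb46 lay under the mean of 50 CPM asked of measured genes and are not among the 5 measured. Flt3 by subcluster stood at 79.8 CPM in subcluster 1, 27.1 in the macrophage-like cells, 20.4 in subcluster 3, 95.5 in the DC1-like and 154 in the migratory DC-like cells. Kit stood at 104 CPM in subcluster 1 and at 12.3 in the macrophage-like cells.

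DC1 genes lay mostly in 1 subcluster. Over all Apoe-low cells, 5 of 12 DC1 genes were measured, and Batf3 and Naaa were at least 2-fold higher than in Apoe-high cells. Xcr1, the receptor for the chemokine Xcl1, stood at 176 CPM in the DC1-like cells and at 0 to 27.1 CPM in the other 4 subclusters. Clec9a, a receptor for dead cells, stood at 200 CPM there and at 8.17 to 46.8 elsewhere. Of 69 cells with Xcr1 or Clec9a, 45 were DC1-like, and 10 each fell in subclusters 1 and 2. Naaa, a lysosomal amidase, reached 555 CPM in the DC1-like cells against 29.0 in subcluster 1, and Ifi205 863 against 165. Irf8, the factor DC1 depend on, stood at 591 CPM against 32.7 to 319 elsewhere, and over all cells it did not separate Apoe-low from Apoe-high cells (206 against 194 CPM). The DC1-like cells also had 3 of 5 cycling markers raised (Top2a, Stmn1 and Birc5), and they held 13 of the 23 Apoe-low cells with Mki67 or Top2a.

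DC2 genes went in both directions. Of 16 listed, 9 were measured against Apoe-high cells. Cd209a, Clec10a and the lymphotoxin gene Ltb were at least 2-fold higher, the integrin Itgam, the inhibitory receptor Sirpa and the lectin Clec4a2 were lower, and the median log2 ratio was -0.22. Cd209a, a lectin that binds glycans, stood at 119 CPM (104 to 137) against 18.0 in Apoe-high cells (6.64-fold, 3.99 to 11.8). It was seen in 84 cells (19.5%), or 9.74% after thinning, against 0% of T-rule and of B-rule cells. Of these cells, 59 were in subcluster 1 and 17 in subcluster 3, and 1 was DC1-like. Clec10a stood at 98.3 CPM against 19.1 (5.15-fold) and Mgl2, its close relative, at 73.3 against 14.6 (5.02-fold). The pair are near-copies, and reads may be divided between them. Mgl2 lay under the mean of 50 CPM asked of measured genes. Only 2 cells carried Xcr1 or Clec9a together with Clec10a or Mgl2, and 5 carried them with Cd209a. The factor Irf4 stood at 26.1 CPM, and Sirpa at 73.3 CPM against 209 (2.85-fold lower, 2.27 to 3.60).

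Klrd1 and Klrk1, lectin-like receptors best known on natural killer (NK) cells, were widespread without the NK programme. Klrd1 stood at 559 CPM (524 to 595) against 62.9 in Apoe-high cells (8.88-fold, 6.78 to 11.8) and was seen in 55.5% of Apoe-low cells. After thinning that share was 35.3%, against 1.73% of Apoe-high and 0% of B-rule cells. T-rule cells, which can express it, had 34.6% and NK-rule cells 77.6%. It stood at 961 CPM in subcluster 1, 36.9 in the macrophage-like cells, 882 in subcluster 3, 173 in the DC1-like and 379 in the migratory DC-like cells. Klrk1 stood at 166 against 27.0 CPM (6.15-fold, 4.05 to 9.76) and was seen in 43.6%. At least 1 of these receptors was seen in 293 cells (68.0%), while Nkg7, Ncr1 or Prf1, which define NK and cytotoxic cells, were seen in 8. Nkg7 stood at 8.52 CPM against 663 in T-rule cells. The 12 T cell genes summed to 32.4 CPM, against 4425 in T-rule cells.

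Subcluster 1 also carried Epcam, an adhesion molecule of epithelia and of skin dendritic cells, and Il1r2, a decoy receptor for interleukin 1. Epcam was seen in 75 Apoe-low cells, 50 of them in subcluster 1 and 17 in subcluster 3, at 94.3 CPM over all against 2.25 in Apoe-high cells from 2 UMIs (42.0-fold, 11.4 to 349). Its mean over the 2 classes lay under the 50 CPM asked of measured genes. Of the Epcam cells, 64 also had Klrk1 or Klrd1 and 45 had Il1r2. Il1r2 stood at 213 CPM against 64.1 (3.33-fold, 2.51 to 4.48). After thinning it was seen in 14.2% of Apoe-low cells and 0.635% of T-rule cells.

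Ifitm1, Ifitm6 and some S100 genes were also higher than in Apoe-high cells. Ifitm1, a membrane protein that restricts virus entry, stood at 1320 CPM (1267 to 1375) against 111 in Apoe-high cells (11.9-fold, 9.70 to 14.7), and Ifitm6 at 292 against 49.4 (5.91-fold). After thinning Ifitm1 was seen in 42.0% of Apoe-low cells and 1.27% of T-rule cells. Of 4 measured family members these 2 were higher, whereas Ifitm2 and Ifitm3 were within 2-fold (1.49- and 1.33-fold). None of the 16 measured type I interferon response genes was 2-fold apart (median log2 ratio -0.22). By subcluster Ifitm1 ran from 236 CPM in the DC1-like and 404 in the macrophage-like cells to 1814, 2609 and 2260 in subclusters 1, 3 and 5. S100a4, a calcium-binding protein of motile cells, stood at 1197 CPM against 88.8 (13.5-fold, 10.8 to 17.1), S100a6 at 1874 against 388 (4.83-fold) and S100a11 at 1094 against 267 (4.09-fold). Of 12 measured S100 and annexin genes these 3 and Anxa2 were higher and Anxa3 was lower (36.4 against 165 CPM), with a median log2 ratio of 0.05. S100a4 ran from 191 CPM in the DC1-like to 2698 in the migratory DC-like cells. In monocyte-rule cells it was 2.23-fold higher (1.92 to 2.57) than in the Apoe-low cells, and of 11 genes of the list measured there 5 were lower in the Apoe-low cells and none higher. None of the 4 Ifitm genes measured against monocyte-rule cells was 2-fold apart (median log2 ratio -0.21).

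**Figure D3:**
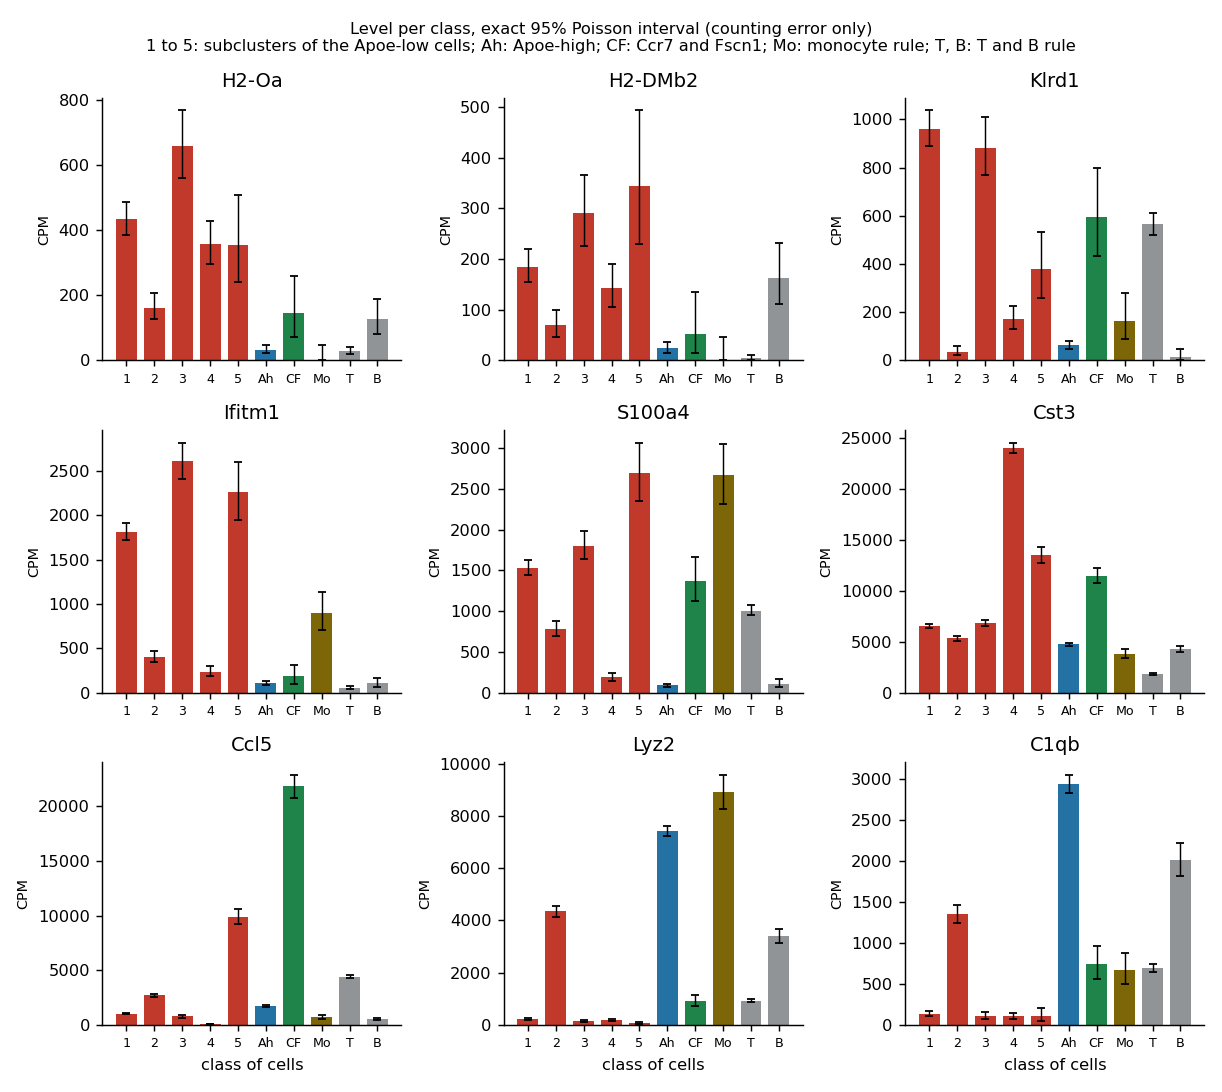
Bars give the level of 9 genes in CPM and whiskers the exact 95% Poisson interval, for the 5 subclusters of Apoe-low cells (red) and for Apoe-high, Ccr7 and Fscn1, monocyte-rule, T-rule and B-rule cells of the Igfbpl1 library. H2-Oa is above the Apoe-high level of 32.6 CPM in every subcluster, Klrd1 is low in subcluster 2, Cst3 is highest in subcluster 4, and Lyz2 and C1qb are high in subcluster 2 alone among the subclusters.

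Macrophage genes were lower than in Apoe-high cells without exception: all 13 measured of 18 listed were at least 2-fold lower, with a median log2 ratio of -2.42. The split on Apoe selects for this direction. C1qa stood at 331 CPM against 2391 (7.23-fold lower, 6.59 to 7.94), the lipid sensor Trem2 at 70.5 against 666 (9.46-fold lower), Ms4a7 at 59.7 against 571 (9.57-fold lower) and the engulfment receptor Mertk at 18.2 against 184 (10.1-fold lower). What remained was uneven. C1qb stood at 1348 CPM in the macrophage-like subcluster and at 102 to 135 in the other 4, below the 688 CPM of T-rule cells, which do not make it. In these 4 subclusters C1qb was seen in 5.33 to 14.5% of thinned cells, below the 23.5% of T-rule and 44.8% of B-rule cells, and it is not read as expression there. Lyz2, a lysozyme, followed: 4348 CPM in the macrophage-like cells and 47.3 to 226 elsewhere. Without the macrophage-like subcluster the macrophage median became -3.06, and 97 genes were higher and 210 lower in place of 71 and 155.

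Lipid handling and lysosomal genes followed the macrophage genes. Of 8 measured genes of cholesterol and lipid transport 6 were at least 2-fold lower and none higher (median log2 ratio -1.19). Apoc2, an activator of lipoprotein lipase encoded beside Apoe, stood at 40.9 CPM against 880 (21.5-fold lower, 16.9 to 27.8) and had no UMI in 4 of 5 subclusters. The cholesterol exporter Abca1 stood at 29.0 against 229 (7.91-fold lower). Of 18 lysosomal and antigen processing genes 11 were lower and 1 higher (median -1.07). The proteases Ctsb (218 against 963 CPM), Ctsd (160 against 763), Lgmn (153 against 763) and Ctsl (80.1 against 339) were 4.24- to 4.99-fold lower, while Ctss, the protease that trims the invariant chain, was 2.10-fold lower (1429 against 2998) and Ctsh was within 2-fold. The exception was Cst3, cystatin C, an inhibitor of such proteases and long used as a dendritic cell marker, at 9977 against 4740 CPM (2.10-fold higher, 2.04 to 2.18). It reached 24040 CPM in the DC1-like cells and 13512 in the migratory DC-like cells, against 5325 in the macrophage-like ones. Of 7 measured Fc receptor genes 4 were lower, among them Fcgr3 (6.48-fold) and the inhibitory Fcgr2b (4.52-fold), and none higher.

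**Figure D4:**
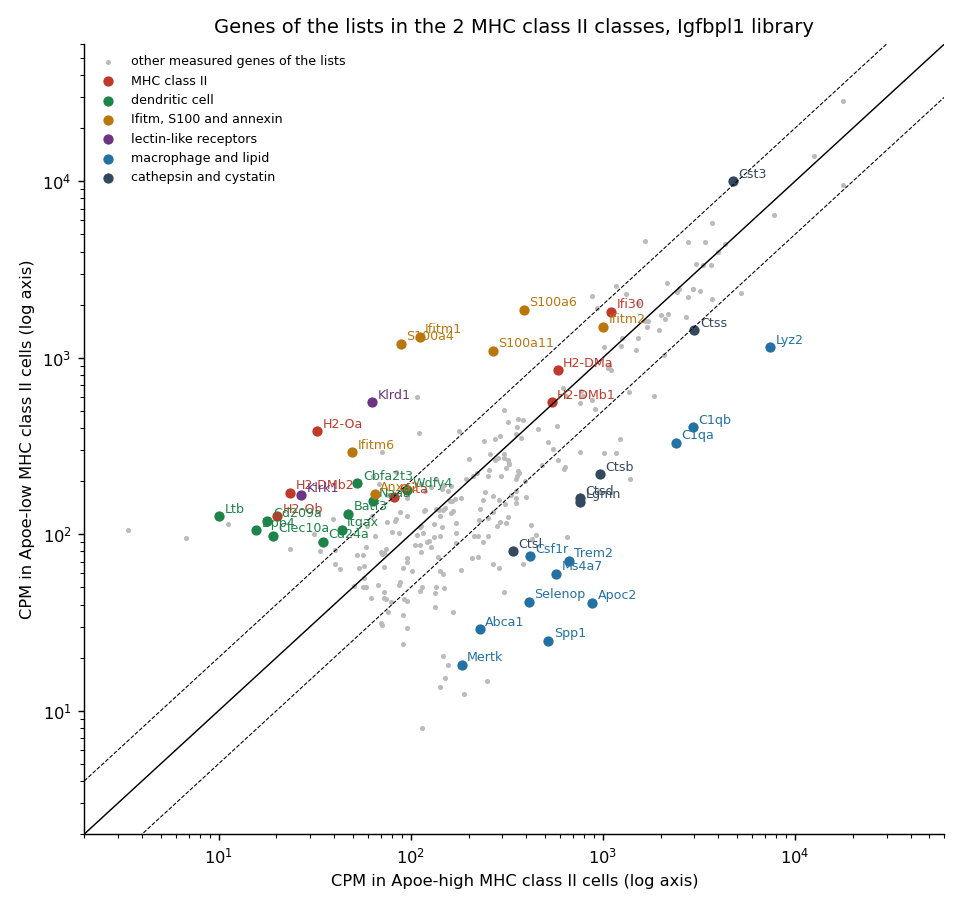
Each point is 1 measured gene of the lists, with CPM in Apoe-high cells on the x axis and in Apoe-low cells on the y axis, both on log axes; the solid line is equality and the dashed lines are 2-fold. H2-Oa, S100a4, Ifitm1 and Klrd1 lie far above equality, Apoc2, Spp1, Trem2 and Mertk far below, and Cst3 lies above while Ctsb, Ctsd and Ctsl lie below.

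Chemokine genes were mixed. Of 13 measured, 2 were higher than in Apoe-high cells (Ccl17 and Cxcl9) and 5 lower. The monocyte attractant Ccl2 stood at 175 against 961 CPM (5.49-fold lower), the neutrophil attractant Cxcl2 at 289 against 1177 (4.07-fold lower) and Ccl3 at 346 against 1230 (3.56-fold lower). Ccl4 stood at 1701 against 2723 and the T cell attractant Ccl5 at 1609 against 1720. Ccl5 divided the Apoe-low cells, with 62.7 CPM in the DC1-like cells, 763 in subcluster 3, 1012 in subcluster 1, 2682 in the macrophage-like and 9903 in the migratory DC-like cells. Several signals came from few cells. Ccl17, a ligand of the chemokine receptor Ccr4, was seen in 26 cells, and the 5 highest held 62.0% of its 187 UMIs. Ccl22, another Ccr4 ligand, was seen in 18 cells, 11 of them migratory DC-like, Il12b in 7, and Cxcl9 in 33. All 214 Xcl1 UMIs came from 5 cells, so its 122 CPM describe those cells only.

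Cytokine genes gave 2 of 17 measured higher (Il1r2 and Ltb) and 5 lower than in Apoe-high cells. Il1b, the inflammatory cytokine, was as high as in Apoe-high cells, at 2367 against 2426 CPM (0.975-fold, 0.926 to 1.03), and its secreted antagonist Il1rn was 3.03-fold lower (73.9 against 224). Of 9 measured costimulation and maturation genes only Tnfsf9, a ligand that costimulates T cells, was higher (100 against 31.5 CPM). Cd83 stood at 371 against 353 CPM and Cd86 at 305 against 553. Among 28 measured transcription factors, Batf3 and Bhlhe40 were higher and 5 were lower, among them Cebpa, Cebpb and Zeb2, which are known in monocytes and macrophages. Spi1, which all of these lineages need, stood at 435 against 320 CPM. None of 12 heat shock genes and none of 12 MHC class I genes was 2-fold apart, and 1 of 19 immediate early genes (Ier3) was lower.

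The Apoe-low cells were next compared with the Ccr7 and Fscn1 cells, the migratory dendritic phenotype of the same library. Of 2277 measured genes 264 (11.6%) were at least 2-fold higher in the Apoe-low cells and 327 (14.4%) lower, with a median log2 ratio of -0.04. Only 27 cells stood behind the comparison, and the interval of the ratio excluded 1 for 200 of the higher and 323 of the lower genes. Of 11 measured migratory genes outside the rule 10 were lower, a direction that the split on Ccr7 and Fscn1 selects for. Among the 10 were the checkpoint ligand Cd200 (22.7 against 543 CPM), the enzyme Il4i1 (31.3 against 569), Fabp5 (263 against 5798) and Ccl5 (1609 against 21829). The exception, Ccl17, stood at 106 against 39.7 CPM from 3 UMIs, a 2.68-fold ratio whose interval began at 0.902. Batf3 was lower as well (3.36-fold, 2.26 to 4.85) and so was Flt3 (3.01-fold, 1.63 to 5.18). Costimulation genes gave 1 higher and 6 lower of 13. MHC class I genes were lower in 7 of 13, with H2-K1 at 1485 against 3323 CPM and B2m at 2451 against 5375. By count, class II genes outside the rule went the other way, with 4 of 7 higher (H2-DMa, H2-DMb1, H2-DMb2 and H2-Oa). H2-DMb1 stood at 559 against 172 CPM (3.25-fold, 1.89 to 6.12) and H2-DMa at 849 against 410 (2.07-fold, 1.45 to 3.06). The sum of the 9 listed genes was not higher, at 4097 CPM in the Apoe-low and 4263 in the Ccr7 and Fscn1 cells. Naaa and Cd209a had no UMI in the Ccr7 and Fscn1 cells, and set against 3 UMIs in that class Naaa was at least 3.89-fold higher in the Apoe-low cells. Ifitm1 was 7.12-fold higher, and Klrd1 was alike at 559 and 596 CPM.

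The last comparison was with monocyte-rule cells, since some dendritic cells arise from monocytes. Of 2539 measured genes 103 (4.06%) were at least 2-fold higher and 328 (12.9%) lower. The median log2 ratio over all of them was -0.33, and with that shift taken out the counts were 180 higher and 131 lower. Class II genes outside the rule were higher in 6 of 7, with a median log2 ratio of 2.11 (2.10 with genes at 0 in monocyte-rule cells set to 3 UMIs). The split on class II selects for this direction. H2-Oa, H2-DMb2 and Ciita had no UMI in the 34 cells, which makes them at least 10.1-, 4.54- and 4.29-fold higher in the Apoe-low cells. Il1b stood at 2367 against 240 CPM (9.86-fold, 6.30 to 16.4), Cst3 at 9977 against 3792 (2.63-fold) and Klrk1 at 166 against 12.6 from 1 UMI (13.1-fold, 2.34 to 520). Of 7 measured genes shared by dendritic cells 2 were higher (Cd24a and Id2) and 1 lower (Bcl11a). Of 4 measured DC1 genes 3 were higher (Batf3, Naaa and Wdfy4) and 1 lower (Irf8). Of 10 measured DC2 genes none was higher and 3 were lower (Cd7, Itgam and Sirpa), with a median log2 ratio of -0.06. Of 9 measured macrophage genes 4 were lower and none higher. Cebpb (4.02-fold, 3.43 to 4.69) and Irf8 (2.27-fold, 1.57 to 3.18) were lower too, as were Ctsb (4.69-fold) and S100a10 (2.80-fold). Of 16 interferon response genes 1 was lower and none higher.

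Markers of further cell types were at or near 0 in the Apoe-low cells. The 9 neutrophil genes summed to 22.2 CPM, with S100a8, Ly6g, Mmp9, Ngp and Camp at 0, and all 5 mast cell and basophil genes were at 0. The 2 red cell genes summed to 1.14 CPM and the 10 photoreceptor and retinal neuron genes to 53.4 CPM. The immunoglobulin chain Igkc came from 10 cells, and the 5 highest held 90.6% of its 53 UMIs. Igf1r, the receptor through which insulin-like growth factors signal, was seen in 3.48% of cells, at 9.09 CPM.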

How the data were processed

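The authors deposited unnormalised UMI counts; per the submitters' processing notes they used Cell Ranger 3.1 and mm10. Which barcodes were kept as cells is not stated. Members, lists and tests were chosen with earlier results of these data known. A gene listed in 1 library counted 0 in the other. UMIs were summed per class and given as CPM with exact Poisson intervals, ratios with exact conditional binomial and shares with Clopper-Pearson intervals (scipy 1.17.1). Log2 ratios had 20 CPM added, and fold ratios nothing. A gene was measured at a mean of 50 CPM over both classes and 50 UMIs, outside the rules. A floor of 3 UMIs bounds a class at 0. Subclusters came from scanpy 1.11.5 (1500 variable genes, 20 components, 15 neighbours, Leiden resolution 0.5). A marker was raised when 2-fold above the other Apoe-low cells (50 CPM added) and seen in 10% of the subcluster. Named were genes of the 41 lists, at most 12 per direction and comparison with the largest log2 ratio, the 25 of highest CPM, and 8 per subcluster. Scripts were tested on simulated data. Doublets were kept.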

Additional observations from a re-analysis of the deposited data

How the results depend on the processing

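No paired analysis was possible because each group had 1 library. The share of Apoe-low cells in the PBS library was 1.90% after thinning to 1000 UMIs. In the Igfbpl1 library it was 14.4% with an Apoe limit of 200 and 19.7% among cells of at least 2000 UMIs. Against Apoe-high cells, 45 genes were higher with 50 CPM added, 116 at a mean of at least 10 CPM and 121 with no filter other than 1 UMI, where 240 were lower. Against Ccr7 and Fscn1 cells, the higher genes numbered 162, 658 and 875 under these settings, and 689 were lower with no filter. Against monocyte-rule cells, 180 were higher and 131 lower when scaled by the median ratio, 67 and 141 with 50 CPM added, 416 and 812 with no filter, and 279 were higher at 10 CPM. Resolution 1.0 gave 9 subclusters. Of 528 comparisons of 48 single genes over 11 settings, 488 moved by less than their interval and 40 moved by more. Reversals were counted only for the 37 genes at least 2-fold apart, and there were 0. Of 407 values of these 37 genes, 9 fell under the 2-fold limit. Naaa, Flt3 and Plac8 did so with a class II limit of 200 (log2 ratios 0.97, 0.99 and 0.95). Genes near equality could change sign, as H2-DMb1 did (log2 ratio 0.04, and -0.05 with a class II limit of 200). Leaving out the macrophage-like subcluster was chosen after seeing the data. There the log2 ratio to Apoe-high cells was -5.17 for Lyz2 and -4.18 for C1qa, and 3.16 for H2-Oa and 3.15 for Klrd1. Depth limits rare genes, and 1 library per group leaves no replicate check.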
